A study of Mus musculus with 4 samples.

Results

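The 8 genes described here, Tgm2, Myof, Crispld2, S1pr3, Syt13, Ermn, Igfbp4 and Ahnak, are 8 of 34745 genes measured by RNA sequencing in 4 libraries of CD4+ T cells from the spleen of wild type C57BL/6 mice. They were chosen on measured values, namely levels much higher in the Th17 and Treg libraries than in the Th0 library, so those differences are a description and are not tested. The naive library was made from CD4+ T cells taken straight from the spleen, and the Th0 library from such cells after 3 days of stimulation through CD3 and CD28. The Th17 and Treg libraries were made after 3 days under the differentiation conditions of each lineage, whose cytokines the labels do not give. Each group had 1 library, so no difference has a replicate check and every interval below is a 95% interval for counting error only. The number of animals behind a library is not given in the sources used here.

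Levels are CPM, read counts scaled to the library's effective (TMM) size in 1e6 reads. Levels of different genes are set side by side only as FPKM, which also divides by gene length. A gene was called higher or lower in a pair of libraries when it differed at least 2-fold after adding 1 CPM and the interval of its count ratio excluded 1. Library totals ran from 10256627 to 12414372 counts, and 3 counts corresponded to between 0.229 and 0.343 CPM.

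The genes belong to different families. Tgm2 encodes transglutaminase 2, a calcium-dependent enzyme that cross-links proteins and also binds GTP. Myof encodes myoferlin, a membrane protein with C2 domains that takes part in membrane fusion and repair. Ahnak encodes a very large scaffold protein under the plasma membrane that binds the annexin A2 and S100A10 complex. S1pr3 encodes a receptor for sphingosine 1-phosphate (S1P), the lipid whose gradient guides T cells out of lymphoid organs through the related receptor S1pr1. Crispld2 and Igfbp4 encode secreted proteins, the former with CAP and LCCL domains and the latter binding insulin-like growth factors. Syt13 encodes an atypical synaptotagmin, a family of vesicle proteins, and Ermn encodes ermin, an actin-binding protein best known from myelinating oligodendrocytes.

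RefSeq promoter sequences (GRCm38.p6) were matched for 6 of the 8 genes, all but Tgm2 and Syt13. The 250 bases before the start of 4 of them are printed as examples, and those of Ahnak and Myof are not printed. Lower case is the sequence 5′ to 3′ on the gene's strand, and capitals mark the matches to 10 motifs searched on both strands. Igfbp4 lies on the plus strand of chr11:99040994-99041243, Ermn on the minus strand of chr2:58052865-58053114, S1pr3 on the plus strand of chr13:51408368-51408617 and Crispld2 on the plus strand of chr8:119992188-119992437.
Igfbp4: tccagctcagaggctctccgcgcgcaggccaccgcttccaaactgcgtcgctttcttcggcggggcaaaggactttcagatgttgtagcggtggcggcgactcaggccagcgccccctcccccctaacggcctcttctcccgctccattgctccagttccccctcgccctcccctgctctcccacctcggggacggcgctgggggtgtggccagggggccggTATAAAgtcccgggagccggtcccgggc
Ermn: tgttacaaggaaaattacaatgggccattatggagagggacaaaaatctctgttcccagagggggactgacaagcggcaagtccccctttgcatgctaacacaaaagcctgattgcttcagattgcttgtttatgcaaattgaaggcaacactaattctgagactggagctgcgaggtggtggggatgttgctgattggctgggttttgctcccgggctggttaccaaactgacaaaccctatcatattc
S1pr3: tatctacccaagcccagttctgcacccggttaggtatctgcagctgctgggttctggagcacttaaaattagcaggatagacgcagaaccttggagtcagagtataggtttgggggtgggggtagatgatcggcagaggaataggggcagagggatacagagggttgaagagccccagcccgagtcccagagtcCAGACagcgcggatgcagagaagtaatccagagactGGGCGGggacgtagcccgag
Crispld2: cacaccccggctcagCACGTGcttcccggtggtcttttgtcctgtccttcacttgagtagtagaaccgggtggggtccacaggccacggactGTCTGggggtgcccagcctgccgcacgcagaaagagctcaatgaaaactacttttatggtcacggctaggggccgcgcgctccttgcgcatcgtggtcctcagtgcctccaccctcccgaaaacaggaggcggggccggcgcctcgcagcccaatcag

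No motif searched was found in more than 3 of the 6 promoters. The short SMAD motif CAGAC was in 3 of them (Crispld2, S1pr3 and Ahnak) and in 42.2% of 32851 promoters of the same length. The GC box GGGCGG was in 2 (S1pr3 and Ahnak) against 32.7% of all promoters. The TATA box TATAAA was in Igfbp4 alone, 28 bases before the start, against 12.4%. The RUNX motif TGTGGT was in Myof alone (14.0% of all) and the E-box CACGTG in Crispld2 alone (6.02%). The AP-1 motif TGANTCA (6.75% of all), the nuclear receptor motif AGGTCA (14.0%), the STAT motif TTCNNNGAA (7.02%), the ETS motif CCGGAA (12.0%) and the SMAD palindrome GTCTAGAC (0.167%) were in none of these windows. Base composition also differed among them. The share of G and C was 69.2% in Igfbp4, 66.4% in Ahnak, 63.2% in Crispld2, 56.4% in S1pr3, 47.2% in Ermn and 42.8% in Myof, against a median of 52.4% over all promoters. The ratio of observed to expected CpG was lowest in Ermn at 0.218 and highest in Myof at 0.971, with a median of 0.373 over all promoters. A match is a description of letters and shows no binding.

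The labels were checked on lineage and cell type markers. Il17a, the cytokine gene of Th17 cells, had 90.4 CPM in Th17, 14.7 in Treg, 0.245 in naive and 0 counts in Th0. Foxp3, the transcription factor gene of regulatory T cells, had 51.5 CPM in Treg, 11.3 in Th17, 1.37 in Th0 and 129 in naive, so that the library labelled naive exceeded Treg. All 10 T cell markers were detected in all 4 libraries, and they summed to between 3784 and 4784 CPM. The naive library stood apart, with 12 macrophage and monocyte markers at a sum of 4891 CPM against 33.1 in Th0, 47.6 in Th17 and 64.7 in Treg. Its B cell markers summed to 3897 CPM against 106.8 to 459.0 in the cultures, and its neutrophil markers to 1476 CPM against 1.26 to 4.42. Ratios over naive are given below with these values in view.

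**Figure D1:**
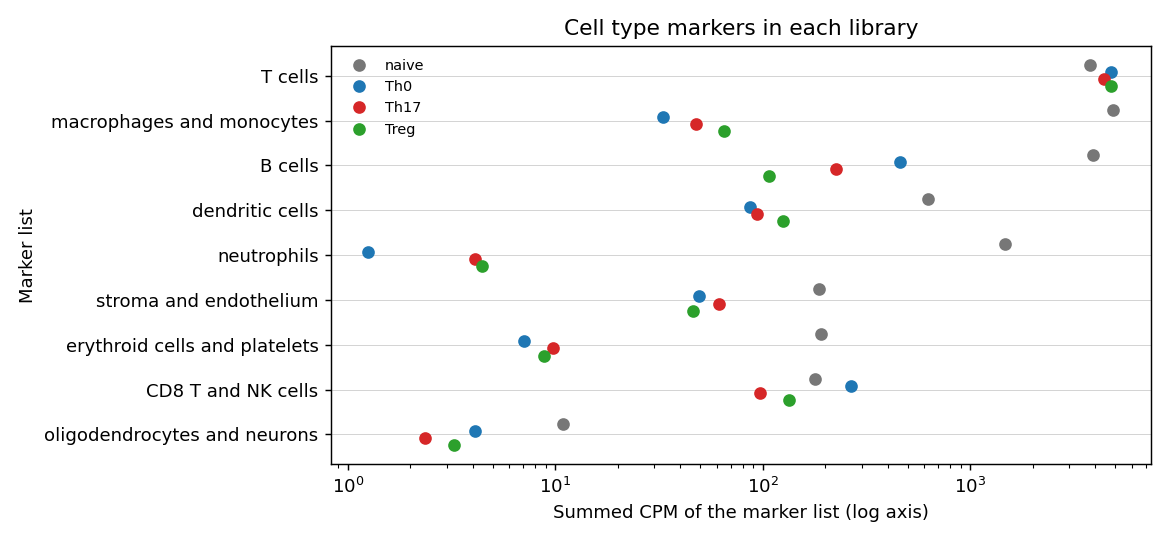
Summed CPM (log axis) of 9 cell type marker lists in each of the 4 libraries, 1 point per library. The T cell markers lie between 3784 and 4784 CPM in all libraries, while the macrophage and monocyte markers stand at 4891 CPM in naive and at 33.1 to 64.7 CPM in the 3 cultures.

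All 8 genes were called higher in Th17 than in Th0 and in Treg than in Th0, which is how they were chosen. Over all genes 20.1% of 13324 were called higher in Th17 over Th0 and 12.4% lower, and 20.2% of 13138 were higher in Treg over Th0 and 12.0% lower. These comparisons share the Th0 library. The median log2 ratio of the 8 genes was 5.01 for Th17 and 4.87 for Treg, beside 0.09 and 0.08 over all genes tested. Scaling to library totals moved the all-gene medians by 0.28 and 0.31, and it moved the share of calls that were higher from 61.9% to 79.3% for Th17 and from 62.7% to 81.8% for Treg. All 8 genes were called higher in both under that scaling too. Macrophage and monocyte markers, a cell type that also expresses Tgm2, moved the same way from a low level: 4 of 7 tested were higher in Th17 than in Th0 and 5 of 12 in Treg, with 0 lower and 0 of 12 at 0 counts in any library, at the sums of 33.1, 47.6 and 64.7 CPM given above. Of the dendritic cell markers 2 of 4 tested were higher in each comparison, and of the neutrophil markers 2 of 2 in Th17 and 1 of 1 in Treg, with 0 lower in either list. B cell markers went the other way, with 4 of 11 lower and 1 higher in Th17 and 9 of 10 lower in Treg. Of the markers of CD8 T and NK cells 3 of 9 were lower in Th17, and in Treg 2 were higher and 1 lower. The part of these cells in the differences was not tested. In bulk RNA, fewer cells with a transcript and less of it per cell cannot be told apart.

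The selection had no fixed limit. Ranked on the smaller of the log2 ratios over Th0 among 12889 genes tested in both comparisons, Tgm2 was number 1, Myof 3, Ermn 5, Crispld2 6 and S1pr3 10. Syt13 was number 41, Igfbp4 115 and Ahnak 572. These ranks hold for ratios after adding 1 CPM. After adding 0.25 CPM instead, the smaller log2 ratio was 6.12 for Crispld2, 6.03 for Myof and 5.94 for Tgm2. In all, 2106 genes were called higher in both, so the 8 are a small and selected part of that group.

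**Figure D2:**
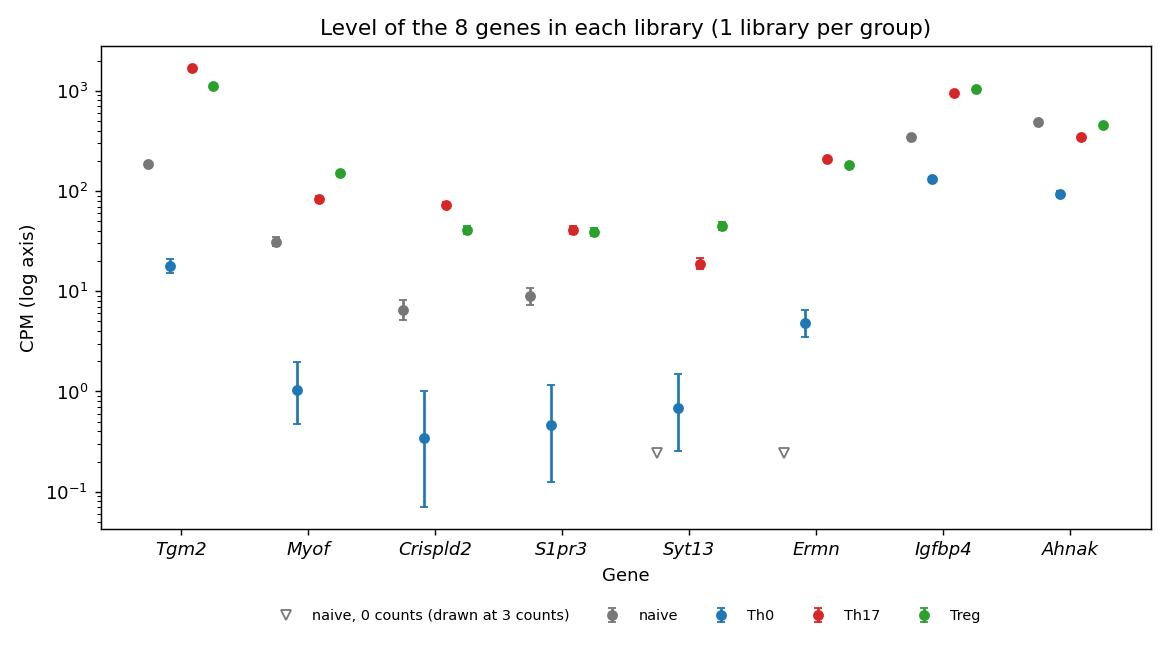
CPM (log axis) of the 8 genes in the naive, Th0, Th17 and Treg libraries, 1 point per library, with bars for the 95% Poisson counting interval and open triangles for 0 counts drawn at 3 counts. In every gene the Th17 and Treg points lie above the Th0 point, and naive is the lowest library for Syt13 and Ermn and the highest for Ahnak.

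Tgm2 (ENSMUSG00000037820) is a gene of 30035 bp on chromosome 2, 158116402 to 158146436 (GRCm38). Its level was 1670 CPM in Th17 and 1115 in Treg, against 188 in naive and 17.9 in Th0. Both polarised cultures thus lay far above the other libraries, by 93.5-fold (79.9 to 110) and 62.4-fold (53.3 to 73.6) over Th0. Per gene length it was also the highest of the 8 genes in both, at 344 FPKM in Th17 and 235 in Treg, and it ranked number 80 among all genes in Th17 and number 7541 in Th0. Its 3′ part overlaps the antisense gene Rprd1b, with which it shares 374 nt of transcript sequence, and strand use in the counting is not given in the sources used here. Rprd1b itself had between 228 and 505 counts in the 4 libraries, against 21918 counts of Tgm2 in Th17 and 156 in Th0.

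Among the other transglutaminases, Tgm1, which cross-links proteins in the epidermis, was the only one of 8 with enough counts to be tested over Th0. Its level was 0.801 CPM in Th0 against 24.5 in Th17, 6.94 in Treg and 32.5 in naive, and it was called higher in Th17 (30.6-fold) and in Treg (8.67-fold). F13a1, the coagulation factor XIII A chain, had 577 counts in naive and at most 6 in any culture. The remaining 6 had at most 5 counts in any culture.

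Myof (ENSMUSG00000048612) spans 144542 bp of chromosome 19, 37899036 to 38043577. It reached 149.8 CPM in Treg and 83.2 in Th17, with 31.3 in naive and 1.03 in Th0. Th0 was the low library, resting on 9 counts, and Treg was the highest. The ratio over Th0 was 80.8 in Th17 (42.4 to 177) and 145 in Treg (76.4 to 319). Of the other ferlins, Dysf, encoding the membrane repair protein dysferlin, had 185 counts in naive, 135 in Th17, 62 in Treg and 3 in Th0. It was called higher in both polarised cultures, at ratios over Th0 of 30 (10 to 147) and 16.3 (5.32 to 81.1). The remaining 4 ferlins had at most 8 counts in any library.

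Ahnak (ENSMUSG00000069833), at chromosome 19, 8989284 to 9076914, stood at 92.7 CPM in Th0, 343 in Th17, 455 in Treg and 484 in naive. Its levels in Treg and naive lay close together, and only Th0 stood clearly below the others. It was 3.70-fold higher in Th17 than in Th0 (3.43 to 3.99) and 4.91-fold higher in Treg (4.56 to 5.30), the smallest ratios of the 8 genes. Of its partner genes Anxa2 and S100a10, only Anxa2 shared the direction over Th0, and its naive level lay near that of Th0. Anxa2 was at 116 CPM in Th0 and 107 in naive against 273 in Th17 and 213 in Treg, and it was called higher in Th17 over Th0 (2.35-fold), while in Treg its ratio was 1.83 and it was called with only 2 of 4 scalings. S100a10 was called in neither, with log2 ratios of -0.76 in Th17 and -0.42 in Treg.

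Of the 14 other genes in the annexin and S100 list, 4 of 12 tested were higher in Th17 over Th0 and 3 of 14 in Treg, with 0 lower in either, beside 20.1% and 20.2% higher and 12.4% and 12.0% lower over all genes. Anxa3 (9.23-fold in Th17 and 13.1-fold in Treg), Anxa4 (2.57-fold and 2.50-fold) and Ahnak2, the paralogue of Ahnak (8.65-fold and 10.4-fold), were higher in both. The list medians were -0.10 and 0.39, the first turning to 0.21 when scaled to library totals and to 0.04 when scaled to the upper quartile. Anxa6 had the highest level per length of the list in naive (186 FPKM), Th17 (125) and Treg (129), and S100a10 in Th0 (113).

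S1pr3 (ENSMUSG00000067586, chromosome 13, 51408639 to 51422797) was at 40.9 CPM in Th17 and 38.8 in Treg, 8.90 in naive and 0.458 in Th0. Th17 and Treg were high and differed by no more than counting error. The Th0 level rested on 4 counts, so the ratios of 89.4 (34.7 to 329) and 84.7 (32.8 to 312) are loosely bounded above. The other S1P receptors followed different orders. S1pr1, the receptor for exit from lymphoid organs, was highest in naive at 541 CPM, with 193 in Th0, 127 in Treg and 80.5 in Th17. It was called lower in Th17 than in Th0 (2.40-fold) with 3 of 4 scalings, and was not called in Treg. S1pr2 was lowest in Th0 at 6.52 CPM, with 18.7 in Th17, 17.9 in Treg and 15.7 in naive, and was called higher in both (2.87-fold and 2.74-fold). S1pr4 (naive 121.5 CPM, Th0 58.4 CPM) was not called in the polarised cultures over Th0 (39.6 and 41.8 CPM), and S1pr5 had 91 counts in naive and at most 8 in a culture. Per length, S1pr3 had 9.65 FPKM in Th17 and 9.35 in Treg, against 28.0 and 45.0 FPKM for S1pr1 and 7.04 and 6.86 FPKM for S1pr2.

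Enzymes that make and break S1P also differed between the libraries. Sphk2, a kinase that makes it, was at 45.4 CPM in Th17 and 41.6 in Treg against 14.2 in Th0, and was called higher in both (3.20-fold and 2.93-fold). Sphk1, the other kinase, had 0 counts in Th0 against 31 in Th17 and 25 in Treg, and was called higher in both. Taken against 3 counts in Th0, its ratios were 6.88 and 6.56. Sgpl1, the lyase that breaks it down, was 2.35-fold lower in Th17, with 3 of 4 scalings, and 2.57-fold lower in Treg. Among the 14 other S1P genes of the list, 3 of 11 tested were higher and 2 lower in Th17, and 3 of 10 were higher and 1 lower in Treg, with medians of 0.28 and 0.14. These counts lie near the shares of all genes (20.1% higher and 12.4% lower in Th17, 20.2% and 12.0% in Treg), and 0 were lower in Th17 when scaled to library totals.

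**Figure D3:**
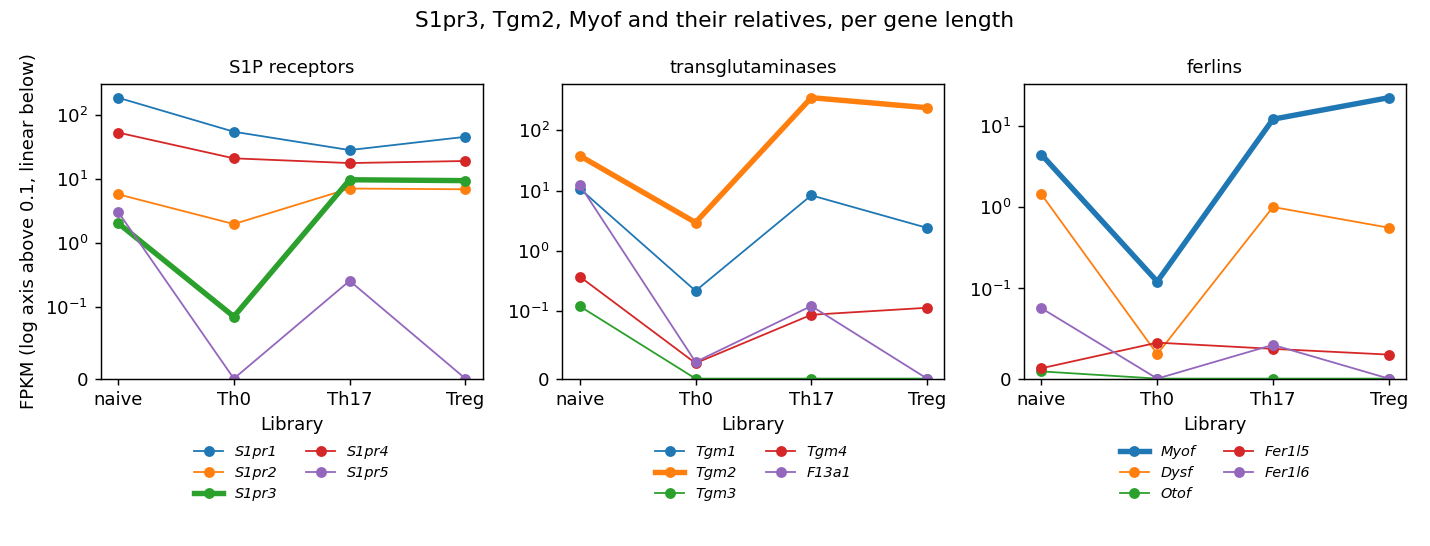
FPKM of S1P receptor genes, transglutaminase genes and ferlin genes in the 4 libraries (axis logarithmic above 0.1 FPKM and linear below), 1 point per library, with lines only to join the points of a gene and thick lines for S1pr3, Tgm2 and Myof. S1pr3 goes from 0.0868 FPKM in Th0 to 9.65 in Th17 while S1pr1 goes from 53.9 to 28.0, and Tgm1, Tgm2, Dysf and Myof all have their lowest level in Th0.

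Crispld2 (ENSMUSG00000031825) spans chromosome 8, 119992438 to 120052793. Th17 was the highest library at 72.5 CPM, followed by Treg at 40.9, naive at 6.53 and Th0 at 0.343. The Th0 level rested on 3 counts, and the ratios over it were 211 in Th17 (72.1 to 1026) and 119 in Treg (40.5 to 580). Its paralogue Crispld1 had 0 counts in all 4 libraries. Of the 12 other CAP domain genes, only Glipr1 and Glipr2 were tested over Th0 and neither was called, except that Glipr2 was higher in Th17 with 1 of 4 scalings. Glipr2, which associates with Golgi membranes, had the highest level per length of the list in the cultures, at 84.2 FPKM in Th0, 179 in Th17 and 125 in Treg.

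Igfbp4 (ENSMUSG00000017493) spans chromosome 11, 99041244 to 99054392. Treg (1039 CPM) and Th17 (960) lay together above naive (345) and Th0 (131). It was 7.33-fold higher in Th17 than in Th0 (6.90 to 7.79) and 7.93-fold higher in Treg (7.47 to 8.44), with Th0 the lowest library. Per length it was second to Tgm2 in the polarised cultures, at 166 FPKM in Th17 and 184 in Treg, and first of the 8 in naive at 58.1 FPKM. Of the other binding protein genes Igfbp7 had the most counts, with 66 in naive and 11 to 33 in the cultures, and Igfbp1 and Igfbp2 had 0 counts in all 4. The receptor genes Igf1r (7.51 to 9.33 FPKM in the cultures) and Igf2r (24.0 to 31.8 FPKM) were not called over Th0. Igf1, the growth factor, had 2 counts in Th0, 10 in Th17, 21 in Treg and 561 in naive, and of the 5 other genes tested it was the only one called, higher in Treg at a ratio of 8.27 (2.02 to 72.8). Pappa, the protease that cleaves this binding protein, had 1 count in naive and 0 in the cultures.

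Syt13 (ENSMUSG00000027220, chromosome 2, 92915098 to 92956058) had 0 counts in naive, with an interval up to 0.301 CPM, and 44.5 CPM in Treg, 18.9 in Th17 and 0.687 in Th0. Treg was the highest library and naive the lowest. The ratio over Th0, which rested on 6 counts, was 27.5 in Th17 (12.5 to 75.7) and 64.9 in Treg (29.6 to 178). Syt13 stood nearly alone in its family. Syt11 was the only other synaptotagmin with at least 10 counts in any library and it was not called over Th0, and the remaining 15 had at most 9 counts. Of the synaptotagmin-like genes, whose products link vesicles to Rab27, Sytl3 was higher in Th17 (2.17-fold) and in Treg (2.22-fold). Sytl1 (2.28-fold, with 3 of 4 scalings) and Sytl2 (4.08-fold) were lower in Th17 and were not called in Treg.

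Ermn (ENSMUSG00000026830, chromosome 2, 58045113 to 58052864) also had 0 counts in naive. Its levels in the cultures were 4.81 CPM (Th0), 207 (Th17) and 182 (Treg). The polarised libraries were close to each other, at 43.1-fold (31.8 to 60.0) and 37.9-fold (27.9 to 52.7) over Th0. Per length it reached 60.3 FPKM in Th17 and 54.2 in Treg, above Ahnak and Myof in the same libraries. The 10 markers of oligodendrocytes and neurons, by contrast, summed to 2.36 CPM in Th17, 3.25 in Treg and 4.12 in Th0, and 5 of them had 0 counts in Th17 and 4 in Treg. Of the linkers between membrane and actin, Ezr, Rdx and Msn were not called over Th0, with log2 ratios from -0.67 to 0.04. Slc9a3r1, a scaffold that binds ezrin, was lowest in Th0 at 41.2 CPM, against 137 in Th17, 188 in Treg and 244 in naive, and was higher in both (3.32-fold and 4.55-fold).

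The direct comparison of Th17 with Treg was not itself a criterion, but the genes were chosen to be high in both libraries. That choice favours similar levels in Th17 and Treg, so these ratios are a description. Nothing is read from their count beside the share of all genes. Syt13 was the only one of the 8 called, 2.36-fold lower in Th17 (2.02 to 2.76), and 0 were higher. Over all genes 1.91% of 13346 were higher and 1.24% lower. Tgm2 and Crispld2 were on the Th17 side, at ratios of 1.50 (1.47 to 1.53) and 1.77 (1.58 to 1.99). Myof and Ahnak were on the Treg side, at 1.80-fold (1.67 to 1.94) and 1.33-fold (1.27 to 1.38) lower in Th17. Igfbp4 (1.08-fold lower in Th17) and Ermn (1.14-fold higher) differed by little, and the interval of S1pr3 included equality (0.928 to 1.20). With 1 library on each side, no replicate spread is at hand to set against ratios of this size.

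**Figure D4:**
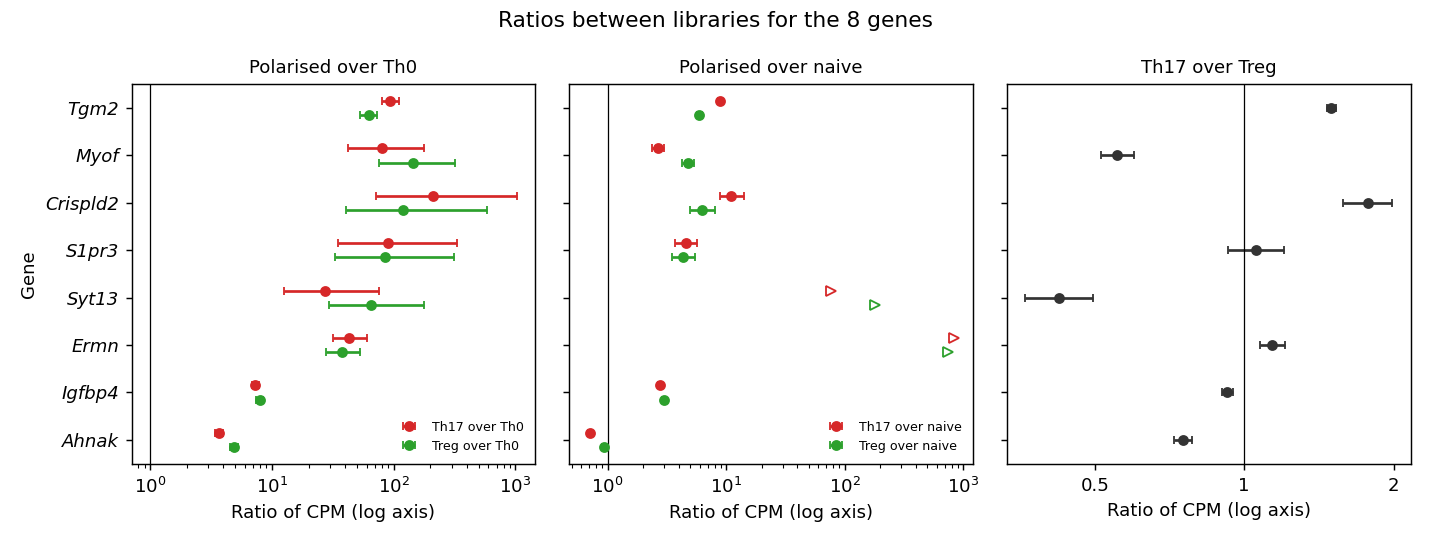
Ratios of CPM (log axes) of the 8 genes for Th17 and Treg over Th0, for Th17 and Treg over naive, and for Th17 over Treg, with bars for the 95% counting interval. Open arrows without bars are ratios taken against 3 counts in naive where the count was 0. Over Th0 all points lie above 1, over naive the Ahnak points lie below 1, and between Th17 and Treg the ratios run from 0.424 for Syt13 to 1.77 for Crispld2.

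The naive level did not enter the choice of the genes, but their Th0, Th17 and Treg levels did, so every ratio over or under naive is a description and nothing is read from its count beside the share of all genes. The naive library split the genes by their order. In Tgm2, Myof, Crispld2, S1pr3 and Igfbp4 the naive level lay between Th0 and the polarised libraries. In Ahnak it was the highest of the 4, and in Syt13 and Ermn the lowest. In Th0, where the genes were chosen to be low, 6 of 7 tested genes were lower than in naive. The share over all 13995 genes was 27.2% lower and 18.5% higher. The ratio was 30.4-fold for Myof (15.8 to 66.9), 19.4-fold for S1pr3 (7.38 to 72.6), 19.0-fold for Crispld2 (6.28 to 94.2), 10.5-fold for Tgm2 (8.94 to 12.4), 5.22-fold for Ahnak (4.85 to 5.63) and 2.63-fold for Igfbp4 (2.47 to 2.82). Ermn was higher in Th0, 19.6-fold against 3 counts in naive, with a lower interval limit of 15.3. Syt13, with 6 counts in Th0 and 0 in naive, was too low to be tested. Between the same libraries all 12 macrophage and monocyte markers were lower too, from a sum of 4891 to 33.1 CPM. Of the tested markers, all 11 of B cells, 8 of dendritic cells, 8 of neutrophils and 10 of erythroid cells and platelets were also lower. For stroma and endothelium 6 of 7 were lower, from a sum of 187 to 49.6 CPM, and 0 were higher in any of these lists. Of the CD8 T and NK cell markers 6 of 10 were lower and 1 higher, and of the T cell markers 0 of 10 were lower and 2 higher. The part of these cells in the ratios was not tested.

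Over naive, 7 of the 8 genes were higher in Th17 and 7 in Treg, libraries in which they were chosen to be high. The shares over all genes were 15.5% of 14523 and 14.9% of 14350. The ratios in Th17 and Treg were 8.90 and 5.94 for Tgm2, 11.1 and 6.27 for Crispld2, 4.60 and 4.36 for S1pr3, 2.66 and 4.79 for Myof, and 2.78 and 3.01 for Igfbp4. Against 3 counts in naive, Ermn was 846-fold and 743-fold higher, with lower interval limits of 688 and 604. Its log2 ratio was the largest among all genes tested in Th17 and the second largest in Treg. Syt13 was 77.1-fold and 182-fold higher on the same basis, with lower limits of 62.3 and 147. Ahnak was called in neither, at 1.41-fold (1.36 to 1.47) and 1.06-fold (1.02 to 1.10) below naive. The macrophage and monocyte markers summed to 47.6 CPM in Th17 and 64.7 in Treg against 4891 in naive. Dendritic cell markers summed to 94.3 and 125.5 CPM against 624, and stroma and endothelium markers to 61.3 and 46.2 CPM against 187. The part of these cells in the ratios over naive was not tested.

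Lists of genes known to respond to transforming growth factor beta and to retinoids were read beside the 8, because Tgm2 is a textbook target of both. The labels name neither agent, and neither was tested here. In the first list 5 of 13 tested genes were higher and 1 lower in Th17 over Th0, and 6 of 14 higher and 1 lower in Treg, with medians of 0.70 and 0.75. The shares over all genes were 20.1% higher and 12.4% lower in Th17, and 20.2% and 12.0% in Treg, and they stand beside the retinoid counts too. The feedback regulators Skil (4.29-fold and 5.35-fold) and Pmepa1 (3.57-fold and 5.34-fold) were higher in both, whereas Smad7 was called in neither, and Id3 was lower in both (4.22-fold and 4.71-fold). In the retinoid list 4 of 8 tested were higher and 1 lower in each comparison, with medians of 1.06 and 1.33. Stra6, a retinol transporter, had 1 count in Th0, 242 in Th17 and 104 in Treg, ratios of 161 (28.6 to 6389) and 81.9 (14.4 to 3267). Crabp2, a retinoic acid carrier, was 3.99-fold and 13.2-fold higher, and Rara, a retinoic acid receptor, 8.94-fold and 6.68-fold. Dhrs3 was lower in both, in Treg with 3 of 4 scalings, and Cyp26a1, which degrades retinoic acid, had 0 counts in the 3 cultures.

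Position was read through the 3 nearest protein-coding genes on each side of each member, leaving out genes that overlap it. Of these 48 neighbours 32 were tested in Th17 over Th0, where 8 were higher and 3 lower, and 30 in Treg over Th0, where 7 were higher and 4 lower. Over all genes 20.1% and 20.2% were higher, and 12.4% and 12.0% lower. The median log2 ratios of the tested neighbours were 0.19 and 0.11. The tested neighbours of Tgm2, Myof, Crispld2 and S1pr3 included none called higher. The overlapping coding genes left out were Rprd1b at Tgm2, Galnt5 at Ermn and Gm20388 at Crispld2. Galnt5 and Gm20388 had 0 counts in every library, while Rprd1b had 443 counts in Th0, 228 in Th17 and 505 in Treg. Igfbp4 had Rara 66302 bp away, called higher in both, and Top2a, a topoisomerase of dividing cells, 17055 bp away and lower in both. Prdm11, 9093 bp from Syt13, was called higher in both, at log2 ratios of 1.77 and 1.96. So was Acvr1, 335780 bp from Ermn, at 2.08 and 1.96. Slc35c1 near Syt13, Gpd2 near Ermn and Tut1 near Ahnak were also higher in both, while Nr4a2 near Ermn and Eef1g near Ahnak were lower in both.

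**Figure D5:**
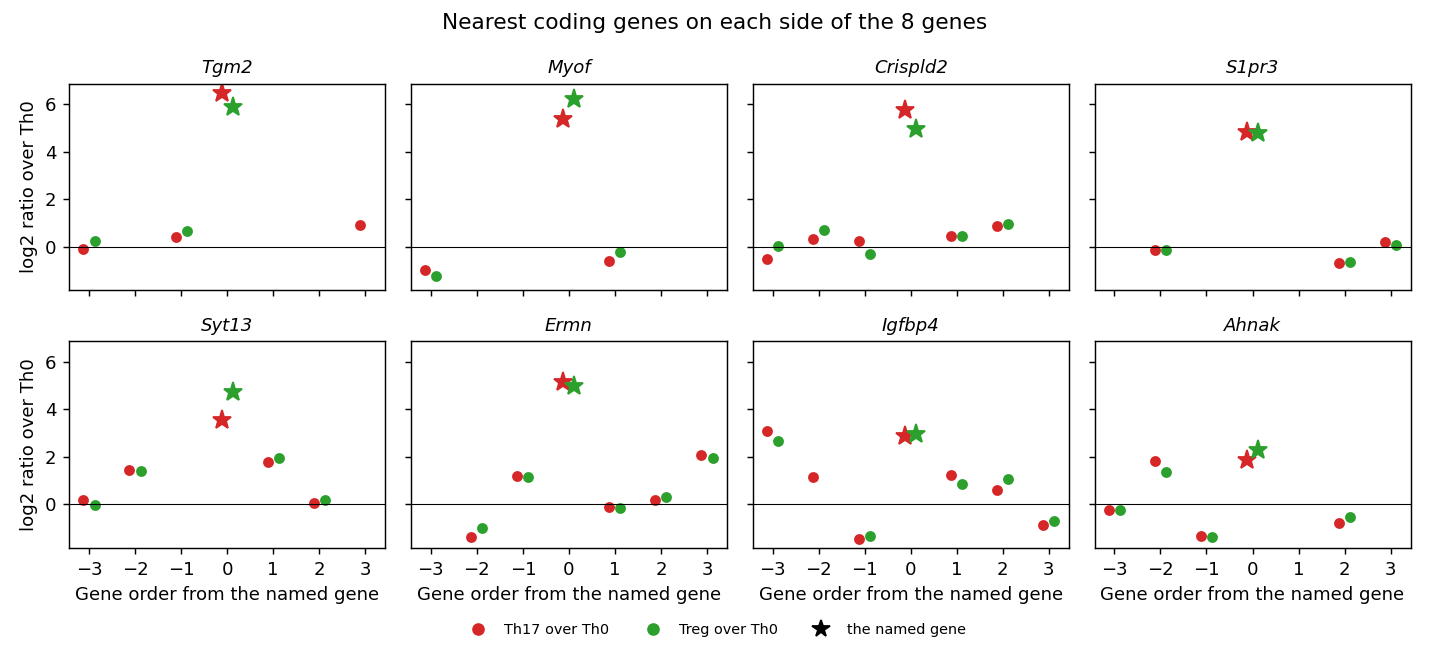
Log2 ratio over Th0 (after adding 1 CPM) of each of the 8 genes (stars) and of its tested neighbours (points), by gene order, for Th17 and Treg, 1 library per group. Neighbours are the 3 nearest protein-coding genes on each side that do not overlap the gene. The stars stand above their neighbours, except that Rara, at order -3 beside Igfbp4, reaches 3.09 in Th17 where Igfbp4 is at 2.86. The 8 genes were chosen on these ratios, so the height of the stars follows from the choice.

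In the functional terms of the deposited table, 6 of the 8 genes carried "extracellular region" and 6 "vesicle", against 17.9% and 17.2% of the 14779 genes with at least 10 counts in a library. The term "plasma membrane" stood on 5 of them (Ahnak, Myof, S1pr3, Syt13 and Tgm2) against 17.2%, and "extracellular exosome" on 5 against 13.5%. The 5 genes with "extracellular exosome" (Ahnak, Crispld2, Ermn, Myof and Tgm2) also carried "extracellular region" and "vesicle", so these terms overlap. All the term counts are over a list chosen by expression and carry no test.

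The genes most like the mean profile of the 8 were found by the Euclidean distance of the centred log2 level over the 4 libraries, among 10880 genes with at least 5 CPM in a library. These 10880 leave out the 8, predicted genes, genes with clone names, T cell receptor and immunoglobulin segments and mitochondrially encoded genes. Fam46a was nearest (distance 0.33), followed by Lta (0.41), Myo3b (0.41), Armcx4 (0.68), Kctd11 (0.80) and Arg1 (0.84). Fam46a was at 18.8 CPM in Th0 and 53.6 in naive, and at 325 in Th17 and 394 in Treg. The 8 genes themselves lay at distances of 0.87 (S1pr3) to 3.94 (Ermn), so they spread widely around their mean. For single genes the nearest was Hk2 for Tgm2 (0.58) and for Crispld2 (0.63), Ccr6 for Myof (0.85), Mir22hg for S1pr3 (0.59), Prnp for Syt13 (0.63), Il24 for Ermn (1.32), Fam212b for Igfbp4 (0.24) and Specc1 for Ahnak (0.16). Specc1 was at 3.09 CPM in Th0 and between 15.9 and 19.4 CPM in the other libraries. Such distances rest on 4 libraries and are a description.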

How the data were processed

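RNA of 4 libraries, 1 per group, was analysed. For each gene the authors deposited raw whole-number counts and FPKM values, per the file headers. The submitters' processing notes name Bowtie2, RSEM, GRCm38.p6 and mm10. No source used here states their roles, the strand setting or the annotation. Dividing counts by FPKM returned a single gene length across libraries (tolerance 0.1%) for all 8988 genes having 50 or more counts everywhere. Groups came from the cell type in the labels.

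Counts were scaled with TMM factors (edgeR 4.0.16, R 4.3.3) computed on genes with at least 10 counts in a library. Size calls, defined above, were made in 6 comparisons for genes reaching 10 counts in 1 of the 2 libraries. Intervals were exact conditional (Clopper-Pearson) or exact Poisson. For a ratio a count of 0 was set to 3 counts, while interval limits used the count of 0 itself. Reads carry no molecular identifiers. On simulated data all 200 changed genes were recovered for Th17 over Th0 among 13010 genes, with 2 unchanged genes called, and all 200 for Treg over Th0 among 12832, with 8. The simulated counts had Poisson error only, and the changes were 3-fold or 6-fold in genes with a pooled level of at least 10 CPM. The simulation therefore gives no error rate for replicate spread and no recovery at low levels. Members and lists were chosen with earlier results of these data known, and 1 gene was taken out of a list because it is not reported here. Named genes were the 8, in each list the up to 3 largest called ratios and 3 highest FPKM levels (not all are printed), and the nearest profiles. The neighbours, the lineage genes and a few further list genes were picked for naming with their values known. Plpp1, Plpp2 and Plpp3 stood under older symbols. Annotation was GENCODE vM21 (GRCm38). Copies were searched with minimap2 2.31 (at least 300 nt at 95% identity). Alternatives were scaling to library totals, to the upper quartile or by DESeq2 (1.42.0), other pseudocounts and count filters, and the authors' FPKM. Scripts ran in Python 3.11.15 with scipy 1.17.1, pandas 2.3.3, numpy 2.4.6 and, for plots, matplotlib 3.10.9.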

Additional observations from a re-analysis of the deposited data

How the results depend on the processing

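The number of the 8 genes called in each of the 6 comparisons stayed within 1 of the reported number under all 8 alternatives to the scaling, pseudocount, count filter and unit. Of 376 ratios of single members under these alternatives, 375 kept their direction and their side of the 2-fold rule. The exception was Crispld2 in Th0 over naive, whose log2 ratio was -0.95 on the authors' FPKM, so that 5 in place of 6 genes were lower there. The count filters could not change a ratio, so their part of the 376 was fixed in advance. The genes were chosen on their ratios over Th0, which favoured agreement in those comparisons. The log2 ratio of Crispld2 in Th17 over Th0, with 3 counts in Th0, was 5.77 as reported, 6.94 with a pseudocount of 0.25, 4.14 with one of 4 and 3.60 on FPKM. That of Tgm2 ran from 6.26 to 6.77 over all settings. Counts over all genes moved more. In Th17 over Th0, 1649 genes were lower, 922 with library totals and 681 on FPKM, and 2683 higher, 1618 with a pseudocount of 4. In Treg over Th0, 1575 were lower, 810 with library totals and 597 on FPKM, and 2653 higher, 1503 with a pseudocount of 4. In Th17 over Treg, 255 higher and 165 lower became 412 and 344 with a pseudocount of 0.25, 113 and 67 with 4, and 112 and 88 on FPKM. In Th0 over naive, 3807 lower became 2534 with a pseudocount of 4, and 2590 higher became 1456 on FPKM, while library totals moved the share of higher calls from 40.5% to 29.6%. Over naive, 2244 higher in Th17 and 2132 in Treg became 1468 and 1410 with a pseudocount of 4. Library totals moved the median of all genes in Th0 over naive by -0.24. No paired analysis was possible because each group had 1 library. Ratios against 3 to 9 counts in Th0 are limited by depth, and the order among Crispld2, S1pr3, Myof and Syt13 is not resolved. The place of Tgm2 beside Crispld2 and Myof changed with the pseudocount.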
